A study of Mus musculus with 54 samples.

Results

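HPC2 and HPC3 are names of sorting gates for restricted haematopoietic progenitors in adult mice. The cells described here are the 89 steady state cells that the deposited annotation assigns to these gates, 44 HPC2 and 45 HPC3, out of 1270 steady state cells and 2301 annotated cells in all. The study profiled single sorted mouse blood cells by a modified Smart-seq2 protocol, at steady state and after transplantation. All libraries used here came from C57BL/6 mice of 8 to 10 weeks, and none of the cells compared had been transplanted. HPC2 is coded iMPP8 and HPC3 iMPP9 in the sample labels. The surface markers of either gate and the animals behind each library were not given in the sources used here. The cells are set against 419 cells of 7 other gates for multipotent progenitors (MPP), named Fraction II, LMPP, MPP1, MPP2, MPP3, MPP4 and ST_HSC, from 13 libraries.

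Multipotent progenitors lie between stem cells and the committed precursors of blood, and they differ in which lineage genes they already transcribe. A megakaryocyte programme is run by transcription factors such as GATA1 and FLI1 with the GATA cofactor encoded by Zfpm1, and it includes Itga2b (integrin alpha-IIb, CD41), Pf4 (platelet factor 4) and the glycoprotein Ib-IX-V subunits. A granulocyte-monocyte programme opens with primary granule proteins such as Mpo (myeloperoxidase), Elane and Prtn3. A lymphoid programme opens with the receptor kinase Flt3, the chromatin organiser Satb1 and Dntt (terminal deoxynucleotidyl transferase).

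The HPC2 cells came from libraries L23 (7 cells), L26 (14 cells) and L49 (23 cells), and the HPC3 cells from L26 (15 cells), L28 (7 cells) and L50 (23 cells). The label of L49 names neither HPC2 nor Fraction II, although the annotation places 23 HPC2 and 14 Fraction II cells there, and that library also held transplanted cells. Results therefore rest on the 66 cells of the 4 libraries whose labels name the gate (21 HPC2, 45 HPC3), and the HPC2 cells of L49 are given beside them. L26 is the one library that held both gates. L50 was labelled bone marrow and spleen, the other 3 bone marrow. Depth per HPC cell ran from 29893 to 842501 counts with a median of 277423, and the number of genes detected from 3727 to 8732. Summed over cells, HPC2 had 3039398 and 4261511 counts in L23 and L26, and HPC3 had 3996183, 2799822 and 6352621 counts in L26, L28 and L50. In the values that follow, HPC2 is given in the order L23, L26 and HPC3 in the order L26, L28, L50. In sums of cells, fewer cells that express a gene and less RNA per cell cannot be told apart.

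Some libraries carried transcripts of other lineages in every cell. In L23 every cell had S100a8, a gene of late neutrophils, at 7104 to 16984 CPM (counts scaled to a library of 1000000), and in L28 every HPC3 cell had it at 3413 to 10974 CPM. Every cell of L26 had at least 218 CPM of Pf4, 168 CPM of Mpo, 104 CPM of Elane and 63.8 CPM of the eosinophil granule gene Prg2. Every steady state cell of L28, of any gate, had at least 253 CPM of Mpo and 300 CPM of Elane. In libraries of the other gates, the lowest steady state cell had from 0.0 CPM (L37) to 964 CPM (L39) of Mpo. For Pf4 that cell had from 0.0 CPM (L39) to 248 CPM (L38). The late neutrophil list summed to 20337 and 52.6 CPM in HPC2, against 198, 10756 and 32.4 CPM in HPC3, so that L23 and L28 were high. In the sums of the other gates it ran from 33.8 to 14257 CPM. The part of these transcripts in the comparisons was not tested.

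The promoters of 4 genes are shown because Itga2b and Gp9 rose in HPC2 relative to HPC3, while Plac8 and Prtn3 fell. Each window runs from 250 bases before to 50 after a RefSeq gene start in GRCm38.p6, read on the gene's strand. The capitals mark a motif of GATA factors, GATAA, and a motif of ETS factors, GGAAG, on either strand. Itga2b lies at chr11:102469834-102470133 on the minus strand, Gp9 at chr6:87777820-87778119 on the plus strand, Plac8 at chr5:100572156-100572455 on the minus strand and Prtn3 at chr10:79879417-79879716 on the plus strand.
Itga2b: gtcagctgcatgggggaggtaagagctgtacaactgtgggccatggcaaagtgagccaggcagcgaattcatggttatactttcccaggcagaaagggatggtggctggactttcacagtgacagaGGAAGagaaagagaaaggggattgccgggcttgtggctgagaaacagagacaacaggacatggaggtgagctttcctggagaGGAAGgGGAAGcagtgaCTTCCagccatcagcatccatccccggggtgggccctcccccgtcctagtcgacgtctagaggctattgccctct
Gp9: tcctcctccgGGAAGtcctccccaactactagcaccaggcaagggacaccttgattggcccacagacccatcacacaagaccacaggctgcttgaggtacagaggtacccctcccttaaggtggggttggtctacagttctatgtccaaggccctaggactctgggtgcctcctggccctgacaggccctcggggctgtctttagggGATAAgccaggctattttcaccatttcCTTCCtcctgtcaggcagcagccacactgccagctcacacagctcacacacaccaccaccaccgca
Plac8: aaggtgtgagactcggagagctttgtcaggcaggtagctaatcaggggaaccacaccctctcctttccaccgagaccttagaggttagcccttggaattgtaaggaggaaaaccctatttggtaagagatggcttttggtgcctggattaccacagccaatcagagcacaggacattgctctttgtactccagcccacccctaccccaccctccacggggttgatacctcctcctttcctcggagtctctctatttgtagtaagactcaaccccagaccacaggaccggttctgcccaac
Prtn3: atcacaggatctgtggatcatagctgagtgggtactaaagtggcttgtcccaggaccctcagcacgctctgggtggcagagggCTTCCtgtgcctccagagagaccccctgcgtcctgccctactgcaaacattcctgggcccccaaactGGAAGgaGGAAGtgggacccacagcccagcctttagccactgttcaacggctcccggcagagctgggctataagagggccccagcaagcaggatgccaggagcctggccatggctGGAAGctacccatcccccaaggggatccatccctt
The GATA motif occurred 0 times in the Itga2b window, 1 in that of Gp9, 0 in that of Plac8 and 0 in that of Prtn3. The ETS motif occurred 4, 2, 0 and 4 times. The GATA motif was in 7 of 26 windows of genes higher in HPC2, in 4 of 24 windows of genes lower in HPC2 and in 25.4% of all 32851 windows. The ETS motif was in 20 of the windows higher in HPC2, 15 of those lower and 71.4% of all. The windows covered 23 of the 30 genes higher and 17 of the 26 genes lower in HPC2. A match is a description of letters, not a binding site.

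The first comparison set all HPC cells against the other multipotent gates. No gene was called between the 4 HPC libraries and the 13 other libraries (edgeR quasi-likelihood test, adjusted p under 0.05; 0 of 11640 genes tested, 0.0%), while 438 genes had an unadjusted p under 0.05 and DESeq2 called 2. The marker genes spread widely between the HPC libraries, given in the order L23, L26, L28, L50. Itga2b had 544, 332, 1.08 and 8.10 CPM in HPC cells, against 0.0 to 361 CPM (median 57) in the other libraries. Gata1, the factor of erythroid and megakaryocyte cells, had 109, 56.2, 0.0 and 1.07 CPM in HPC cells, against 0.0 to 115 CPM (median 20.3). Both were high in the libraries that hold HPC2 and low in L28 and L50, which hold HPC3 alone. Gata2, a stem cell and mast cell factor, had 194, 104, 1.44 and 40.7 CPM, against 3.77 to 266 CPM (median 48.4). Mpo had 0.0, 3933, 4187 and 663 CPM, against 0.0 to 11670.3 CPM (median 647), and was absent from L23, which holds HPC2 alone.

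Weighting each gate equally, in place of each library, called 34 genes (0.271% of 12552), 31 higher and 3 lower in HPC cells. Of these, 9 were late neutrophil genes (Camp, Lcn2, Ltf, Mmp8, Mmp9, Ngp, Retnlg, S100a8 and Wfdc21), which were abundant in L23 and L28 as above. Prg2, Prg3 and Epx, granule genes of eosinophils, were also among them. Prg2 was highest in 2 HPC3 cells of L26, at 35644 and 28239 CPM. The megakaryocyte genes among them were F2rl2, Pf4, Plek and Rap1b. The genes that were lower are Stxbp4, Cd24a and Ramp1.

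The gene lists held no call when all HPC cells were set against the other gates by library, where the median log2 change of all genes was -0.073. Of 22 megakaryocyte genes 20 lay above 0 (median 0.95), with Plek at 1.39 ± 0.56 (SE) and Rap1b at 1.19 ± 0.61. Of 27 genes of G2/M and mitosis 26 lay above 0 (median 0.49), with Ccnb1 at 0.88 ± 0.42. Of 20 erythroid genes 17 lay below 0 (median -2.05), with the carbonic anhydrase gene Car2 at -1.44 ± 0.39. Of 22 interferon response genes 20 lay below 0 (median -0.85), with Xaf1 at -1.42 ± 0.56. Of 24 genes of stem cell identity 20 lay below 0 (median -0.64). None of these members passed the test.

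The second comparison set HPC2 against HPC3. Genes of different lineages moved in opposite directions between them in some fits. In a fit that took each of the 9 gates as a group of its own, 30 genes rose and 26 fell in HPC2 relative to HPC3 (56 of 12552, 0.446%). Those that rose included 12 megakaryocyte genes, and those that fell included genes of granulocyte-monocyte and lymphoid priming. That fit was chosen after the data were seen. The fit set for this comparison at the outset, with the other gates pooled into a single group, called 0 of 12580 genes (0.0%), with 774 at an unadjusted p under 0.05. In place of that fit, DESeq2 called 54 genes and a fit on the HPC2 and HPC3 sums alone called 38 (0.37% of 10260). Of the 56 genes, 18 were called by DESeq2 and 29 on the sums alone. Because 1 library can hold several gates, the fit with each gate as a group was repeated in limma voom with the library as a block. It called 48 genes, 38 higher and 10 lower in HPC2, 33 of them among the 56. Of the 10 largest rises named below 10 were called with the block, and of the 10 largest falls 1 (Stxbp4).

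In all 56 genes the HPC2 and HPC3 sums did not overlap, against 21.57% of all genes tested, and in all 56 the difference within L26 had the sign of the fit. These libraries enter the fit, so both counts describe it. The HPC2 cells of L49 did not enter it. Their sum lay beyond all 3 HPC3 sums on the side of the fitted change in 45 of the 56 genes, against 31.1% of all genes. It lay within the HPC3 range in 8 and beyond it on the opposite side in 3 (Tmsb4x, Plek and Rap1b). With the L49 cells added, 56 genes were called, 37 of them among the first 56. Leaving out L23, L26 or L50 gave 40, 65 and 41 calls, and leaving out L28 gave 21. Without L23 or L26 the HPC2 group is 1 library, which is assumed to vary like the other groups. Each of the 20 genes with the largest changes described below lost its call without at least 1 of these libraries.

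**Figure D1:**
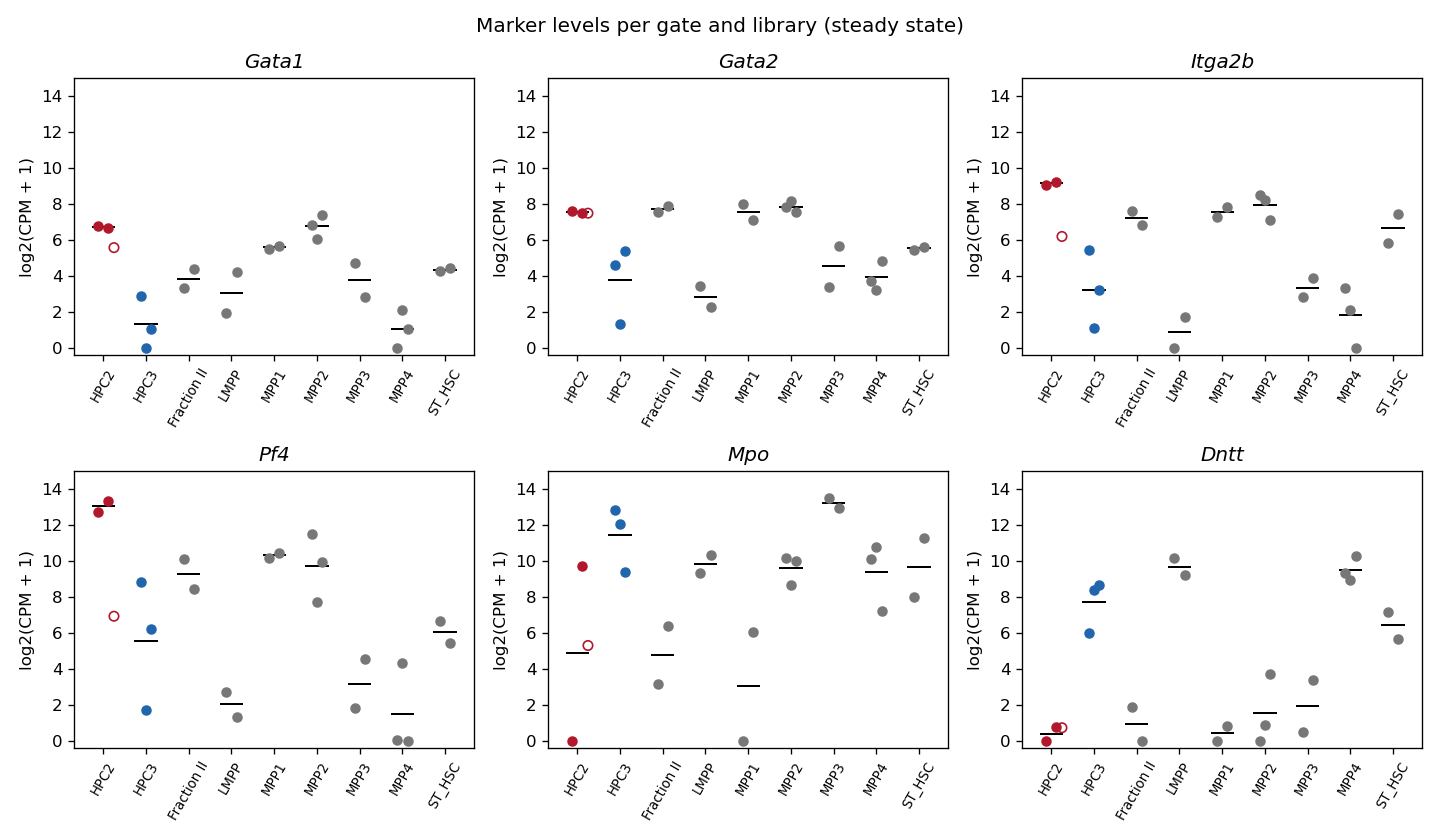
Level of 6 lineage genes, as log2(CPM + 1) with TMM scaling, in each library of the 9 gates; filled points are libraries, bars are their means, and the open point is HPC2 of L49. Itga2b was 538 and 599 CPM in HPC2 and 1.10 to 42.7 CPM in HPC3, while Dntt was at most 0.711 CPM in HPC2 and 63.8 to 408 CPM in HPC3.

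Among the markers, Itga2b and Gata1 were higher in HPC2. Itga2b had 538 and 599 CPM in HPC2, against 42.7, 1.10 and 8.09 CPM in HPC3, a log2 change of 5.04 ± 1.01 (SE; edgeR adjusted p = 0.0154). Without L28 or without L50 its adjusted p by edgeR was 0.076 and 0.0796. HPC2 of L49 had 72 CPM, above all 3 HPC3 sums and below both other HPC2 sums. Gata1 had 108 and 102 CPM in HPC2, against 6.36, 0.0 and 1.07 CPM in HPC3 (log2 change 5.39 ± 1.23, edgeR adjusted p = 0.0411, 0.18 without L28 and 0.187 without L50). Gata2 had 192 and 180.0 CPM in HPC2 and 178 CPM in HPC2 of L49, against 22.8, 1.46 and 40.6 CPM in HPC3, without overlap. Its log2 change of 3.09 ± 0.73 missed the threshold (edgeR adjusted p = 0.053) and passed it with the L49 cells (0.0182) or without L50 (0.0333). Mpo had 0.0 and 836 CPM in HPC2, against 7507, 4256 and 661 CPM in HPC3. The gates overlapped there, and the log2 change of -3.31 ± 1.63 did not pass (edgeR adjusted p = 0.672); without L26, where the HPC2 group is 1 library at 0, it was 0.000984. In GRCm38, Itga2b lies on chromosome 11 at 102453297 to 102470122, Gata1 on chromosome X at 7959260 to 7978071, Gata2 on chromosome 6 at 88193891 to 88207032 and Mpo on chromosome 11 at 87793581 to 87804413, all protein-coding.

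Of 22 megakaryocyte genes tested, 12 rose in HPC2 and 0 fell, with a median log2 change of 4.94, against -0.081 over all genes. The number called was 5 without L28, 5 without L50, 10 without L23, 11 without L26 and 9 with the L49 cells. Gp9, a subunit of the platelet receptor for von Willebrand factor, had 183 and 245 CPM in HPC2, against 10.6, 2.19 and 3.51 CPM in HPC3 (log2 change 5.29 ± 1.03, edgeR adjusted p = 0.0117). The other subunit genes Gp5 and Gp1bb rose by 7.56 ± 1.51 and 7.35 ± 1.52. Vwf, the ligand of that receptor, had 148 and 266 CPM in HPC2, against 5.30, 0.0 and 0.611 CPM in HPC3. These genes were high in both HPC2 libraries and near 0 in L28 and L50. The thrombin receptor genes F2r and F2rl2 rose by 3.26 ± 0.67 and 6.00 ± 1.35. Rap1b, a small GTPase of platelet activation, had 965 and 768 CPM in HPC2 and 72 CPM in HPC2 of L49, against 143, 72.3 and 80.4 CPM in HPC3. For Rap1b the L49 cells therefore stood with HPC3. The list sums were 13054 and 16149 CPM in HPC2 and 1402 CPM in HPC2 of L49, against 1093, 487 and 738 CPM in HPC3. By list sum, HPC2 of L49 thus lay above every HPC3 sum and below both other HPC2 sums. Pf4 had 6921 and 10489.8 CPM in HPC2 and 121 CPM in HPC2 of L49, against 456, 2.19 and 72 CPM in HPC3. Its log2 change of 5.62 ± 1.42 missed the threshold (edgeR adjusted p = 0.0875). With a single HPC2 library, its spread borrowed from the other groups, that p was 0.0147 without L23 and 0.00107 without L26; it was 0.231 without L28, 0.283 without L50 and, in limma voom with the library as a block, 0.0071.

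Other genes with the largest rises were Samd14, Sdpr, a caveola component gene, and Mfsd2b, a sphingosine-1-phosphate exporter. Samd14 had 59.1 and 60.6 CPM in HPC2, against 0.265, 0.0 and 0.305 CPM in HPC3, where it rested on 3 counts in all. Sdpr rose by 6.77 ± 1.43, and Mfsd2b had 195 and 136 CPM in HPC2, against 10.6, 3.65 and 1.37 CPM in HPC3. Of 12 genes of the GATA and TAL1 factor complex 3 rose (Zfpm1, Gata1 and Fli1) and 0 fell, with a median of 2.28. Zfpm1 had 241 and 196 CPM in HPC2, against 14, 0.0 and 15.7 CPM in HPC3. Of 23 erythroid genes 3 rose (Hemgn, Apoe and Gata1), with a median of 0.83; without L28 the number was 0 and without L50 0. Klf1, the erythroid factor gene, was low in both gates, at 4.38 and 13 CPM in HPC2 and 1.32, 0.0 and 0.458 CPM in HPC3.

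Of 20 lymphoid priming genes tested, 3 fell in HPC2 (Satb1, Dntt and Flt3) and 0 rose, with a median log2 change of -4.11. The list sums overlapped, at 946 and 323 CPM in HPC2, against 850, 2147 and 2414 CPM in HPC3. Dntt had 0.0 and 0.711 CPM in HPC2, from 3 counts in all, and 0.638 CPM in HPC2 of L49, against 63.8, 335 and 408 CPM in HPC3. Its call was lost without L23 (edgeR adjusted p = 0.0567) or without L28 (0.0514). Satb1 had 0.938 and 2.13 CPM in HPC2, against 37.1, 103 and 150.5 CPM in HPC3 (log2 change -5.94 ± 1.10, edgeR adjusted p = 0.00779, 0.0587 without L23). Flt3 had 14.7 and 0.474 CPM in HPC2, against 39.5, 192 and 300.2 CPM in HPC3 (log2 change -4.58 ± 1.07, edgeR adjusted p = 0.0495, lost without L28 or L50). With the library as a block in limma voom none of the 3 was called, with adjusted p-values of 0.181 for Dntt, 0.159 for Satb1 and 0.463 for Flt3. In these 3 genes the gates did not overlap, L26 was the lowest of the HPC3 sums, and HPC2 of L49 lay under every HPC3 sum.

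Of 24 granulocyte-monocyte genes tested, 2 fell in HPC2 (Plac8 and Prtn3) and 0 rose, with a median of -2.75. The list sums were 2086 and 4375 CPM in HPC2, against 32100, 24528 and 4882 CPM in HPC3. Plac8 had 469 and 542 CPM in HPC2 and 468 CPM in HPC2 of L49, against 3726, 3534 and 2149.6 CPM in HPC3 (log2 change -2.63 ± 0.30, edgeR adjusted p = 8.5e-06). Prtn3, the serine protease proteinase 3, had 90.7 and 396 CPM in HPC2, against 4265, 3354 and 504 CPM in HPC3 (-3.47 ± 0.66). Both were lower in every HPC2 sum than in any HPC3 sum. With the library as a block in limma voom the adjusted p was 0.000911 for Plac8 and 0.428 for Prtn3. Elane had 0.0 and 640.1 CPM in HPC2, against 6991, 4809 and 14.2 CPM in HPC3, so that L50 lay between the HPC2 sums. Other genes with the largest falls were Stxbp4, Rasa4, Zfp260, BC035044, Tmem173, Clec12a and Atp8b4. Clec12a, a C-type lectin receptor of myeloid cells, had 17.5 and 12.1 CPM in HPC2, against 277, 539 and 167 CPM in HPC3. Tmem173, which encodes STING, the adaptor of cytosolic DNA sensing, fell by 4.51 ± 0.86 on the log2 scale. The smallest adjusted p-values were those of Ramp1, a coreceptor subunit for calcitonin gene-related peptide, followed by Plac8 and by Emb, a cell surface glycoprotein gene, which tied. Ramp1 had 59.7 and 82.2 CPM in HPC2, against 684, 1004 and 683 CPM in HPC3. Emb had 27.5 and 43.8 CPM in HPC2, against 441, 685 and 489.6 CPM in HPC3.

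**Figure D2:**
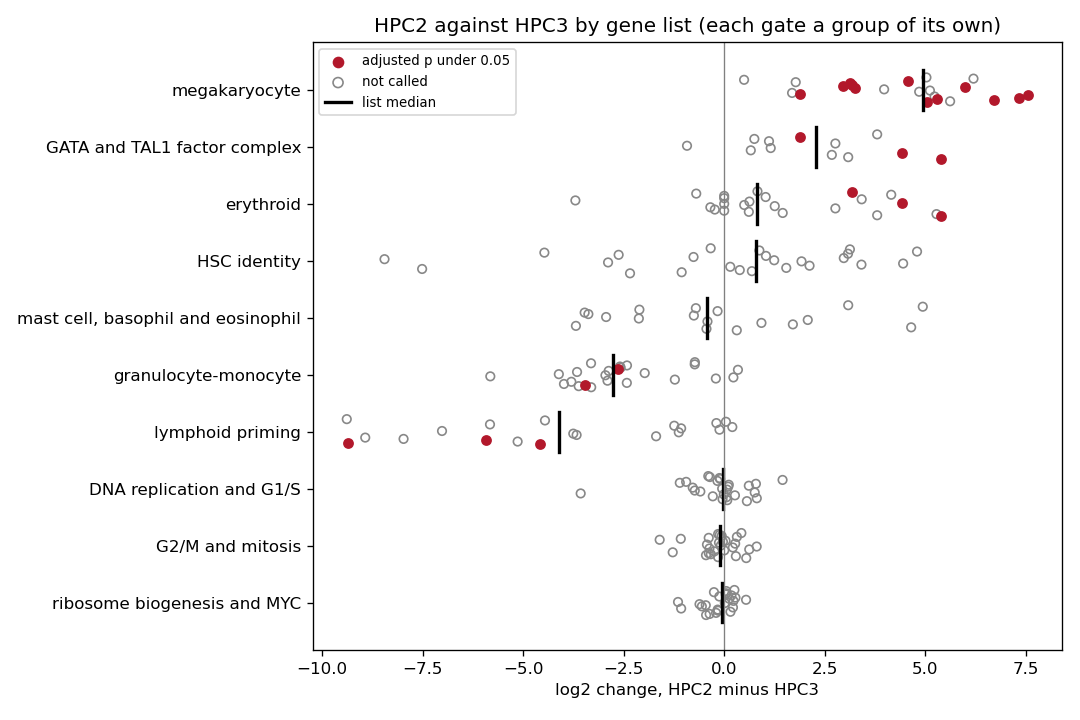
Log2 change of HPC2 minus HPC3 for the members of 10 gene lists in the fit with each gate as a group; each point is a gene, red where the adjusted p was under 0.05, and black bars are list medians. The medians were 4.94 for megakaryocyte and -4.11 for lymphoid priming genes.

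The remaining lists, which share some genes with those above, held few or no calls between HPC2 and HPC3. None was called of 27 DNA replication genes (median -0.040), 27 G2/M genes (-0.11), 24 ribosome biogenesis and MYC genes (-0.052) or 24 stem cell identity genes (0.78). Likewise none was called of 18 cell cycle brake genes (-0.42), 17 immediate early genes (-0.55), 22 interferon response genes (0.038), 8 MHC class II genes (-1.03) or 18 mast cell, basophil and eosinophil genes (-0.43). Among the stem cell genes Ly6a (Sca-1) had -2.63 ± 0.75 and Pdzk1ip1 2.98 ± 0.87. Of 23 cytokine receptor genes 2 fell (Ifngr1 and Flt3), and of 16 genes of the SLAM family and stem gate surface Cd9 and Itga2b rose and Flt3 fell. Cd9 had 791 and 724 CPM in HPC2, against 94.8, 95.4 and 58.8 CPM in HPC3. Among markers of mature cells, 1 of 6 T cell genes rose (Lat, an adaptor also used in platelets) and 1 of 8 dendritic cell genes fell (Flt3). The B cell (3 tested), NK cell (6), macrophage (12), late neutrophil (12), erythroblast (5) and stromal and endothelial (5) lists had no call. Named list members that were not called with the library as a block in limma voom also include F2r, Fli1, Hemgn, Ifngr1 and Lat, with adjusted p-values from 0.0576 to 0.309.

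Single cells were not alike within a gate. Pf4 was above 5000 CPM in 5 of 7 HPC2 cells of L23 and 7 of 14 of L26, and in 0 of 45 HPC3 cells. The limit was chosen after the values were seen; the nearest cells had 2977 and 5761 CPM. The 12 high cells had medians of 878 CPM of Itga2b, 343 CPM of Vwf, 1272 CPM of Rap1b and 12459 CPM of Tmsb4x, the gene of the actin-binding peptide thymosin beta-4. The other 9 HPC2 cells of L23 and L26 had medians of 158 CPM of Itga2b, 5.74 CPM of Vwf, 212 CPM of Rap1b and 4818 CPM of Tmsb4x. Gata1 differed little between them, with medians of 108 CPM in the high cells and 98.9 CPM in the other 9. Plac8 ran the other way, at 142 CPM in the high cells and 688 CPM in the other 9.

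The 23 HPC2 cells of L49 all had Pf4 under 5000 CPM, the highest at 1598 CPM and the median at 30.3 CPM. Median Hlf, a stem cell factor gene, was 178 CPM in them, 11.4 CPM in the Pf4-high cells and 4.49 CPM in the other 9. Median Ly6a was 162 CPM in the L49 cells, 6.73 CPM in the Pf4-high cells and 2.87 CPM in the other 9. Median Gata2 was closer, at 93.2 CPM, 95.5 CPM and 133 CPM in the same order. The effect of the library and a difference in the cells cannot be told apart.

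HPC3 held another split. Mpo was above 2000 CPM in 8 of 15 HPC3 cells of L26, 3 of 7 of L28 and 1 of 23 of L50, a limit also chosen after the values were seen, with the nearest cells at 1152 and 2409.8 CPM. These 12 cells had medians of 8126 CPM of Mpo, 7893 CPM of Elane, 4159 CPM of Ctsg and 1125 CPM of Ms4a3, genes of granulocyte-monocyte progenitors. They include the 2 cells of L26 with Prg2 at 35644 and 28239 CPM, against a median Prg2 of 130 CPM in the 12. The other 33 HPC3 cells, 22 of them from L50, were not alike between libraries. Median Mpo in them was 492 CPM in L26, 776 CPM in L28 and 159 CPM in L50. Elane ran from 173 to 343 CPM in those of L26, from 765 to 1507 CPM in those of L28 and from 0.0 to 2.17 CPM in those of L50. In the Mpo-high cells Elane was 1617 to 14019 CPM in L26, 581 to 13424 CPM in L28 and 250.3 CPM in the 1 cell of L50. The 2 groups of cells thus overlapped in Elane within L28 and did not within L26. Median Ms4a3 in the other cells was 26.7 CPM in L26, 111 CPM in L28 and 0.0 CPM in L50. Lymphoid and stem cell genes ran the other way within L26. There median Flt3 was 0.0 CPM in the 8 Mpo-high HPC3 cells and 150.3 CPM in the other 7, and median Dntt was 0.790 CPM in the Mpo-high and 173 CPM in the other 7. Median Hlf was 0.0 CPM in the Mpo-high cells and 48.5 CPM in the other 7, and median Ly6a 6.90 CPM in the Mpo-high and 141 CPM in the other 7. In L28 median Flt3 was 15.1 CPM in the 3 Mpo-high cells and 270.0 CPM in the other 4, and median Dntt was 48.8 CPM in the Mpo-high and 193 CPM in the other 4. In the 22 other cells of L50 the medians were 199 CPM of Flt3 and 90.04 CPM of Dntt. Depth also differed along the split. In L26 the Mpo-high HPC3 cells had 230354 to 842501 counts, apart from a cell at 73758, against 49501 to 155900 in the other 7. In L28 the Mpo-high cells had 471369 to 800909 counts, against 37816 to 396023 in the other 4. The part of depth in the split was not tested. In HPC2 of L26, 2 cells had Mpo above 2000 CPM, the higher at 11351 CPM. The lowest cell had 168 CPM of Mpo in HPC2 of L26, 293 CPM in HPC3 of L26 and 677 CPM in HPC3 of L28. Over all steady state cells of L28, of any gate, the lowest had 300 CPM of Elane.

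**Figure D3:**
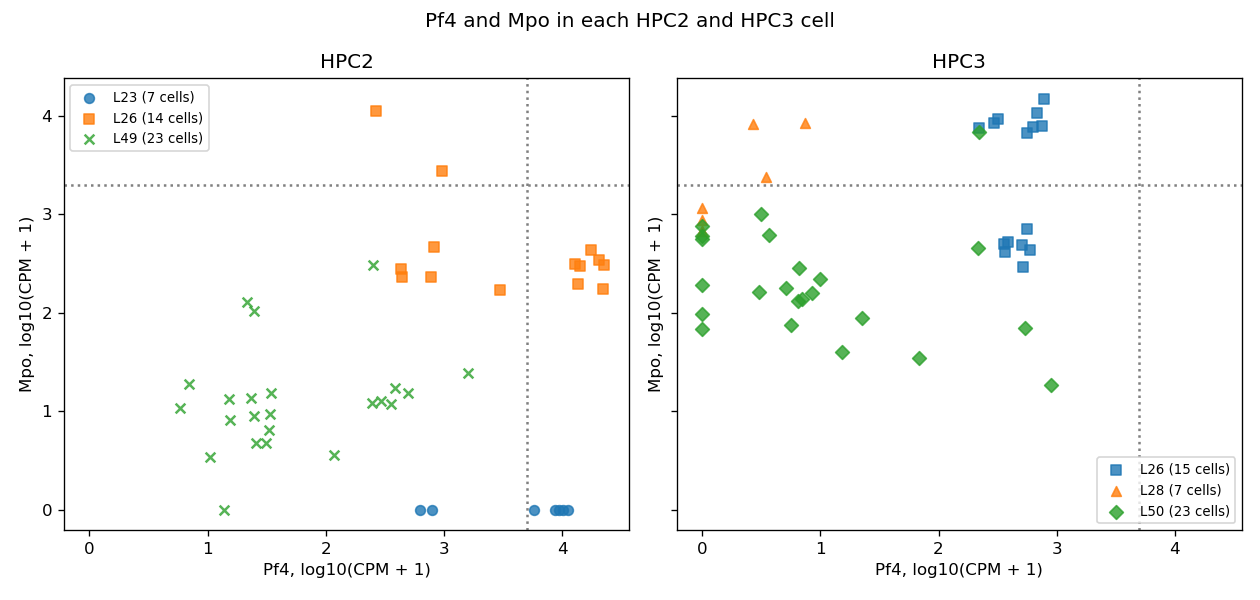
Pf4 against Mpo in each HPC2 cell (left) and HPC3 cell (right), as log10(CPM + 1) without library scaling; symbols mark libraries and dotted lines the limits of 5000 CPM of Pf4 and 2000 CPM of Mpo. No cell lies beyond both limits.

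Among the 14 HPC2 cells of L26, Pf4 went with Vwf (Spearman rho 0.93, Pearson r 0.92 on log2(CPM + 1)), with Tmsb4x (rho 0.84, r 0.86) and with Itga2b (rho 0.80, r 0.78), but little with Gata1 (rho 0.17, r 0.20). In the 23 HPC2 cells of L49, where Pf4 was low, the same pairs were weaker, with rho 0.14, r 0.14 for Vwf, rho 0.40, r 0.15 for Tmsb4x, rho 0.31, r 0.17 for Itga2b and rho 0.11, r 0.19 for Gata1. Among the 15 HPC3 cells of L26, Mpo went with Elane (rho 0.76, r 0.93) and against Flt3 (rho -0.75, r -0.81). In the 23 HPC3 cells of L50, 1 of them Mpo-high, Mpo had rho 0.39, r 0.63 with Elane and rho -0.045, r 0.12 with Flt3. The cells of each set share a library and its background. Their depth differed, from 151296 to 467475 counts in HPC2 of L26 and from 49501 to 842501 in HPC3 of L26. The values are descriptions.

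Each gate was then set against each of the 7 other gates in the same fit, 14 comparisons in all; all but HPC2 against MPP2 were added after the data were seen. For HPC2 the number of genes called was 2 against MPP2 (0.0159%), 3 against MPP1 (0.0239%), 20 against Fraction II (0.159%), 61 against ST_HSC (0.486%), 92 against MPP3 (0.733%), 96 against LMPP (0.765%) and 136 against MPP4 (1.08%). For HPC3 it was 0 against MPP4 (0.0%), 1 against LMPP (0.00797%), 6 against MPP3 (0.0478%), 9 against ST_HSC (0.0717%), 34 against MPP1 (0.271%), 81 against MPP2 (0.645%) and 92 against Fraction II (0.733%). By edgeR, 770 genes had an unadjusted p under 0.05 between HPC3 and MPP4. Each gate had 2 or 3 libraries, and a count of calls is no measure of distance. With the library as a block in limma voom the counts ran from 2 (MPP2) to 190 (MPP3) for HPC2 and from 0 (MPP4) to 220 (Fraction II) for HPC3. Leaving out 1 library gave 2 to 28 calls for HPC2 against MPP1 (most without L26), 2 to 51 for HPC3 against MPP3 (most without L26, fewest without L50) and 0 to 6 for HPC3 against MPP4.

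**Figure D4:**
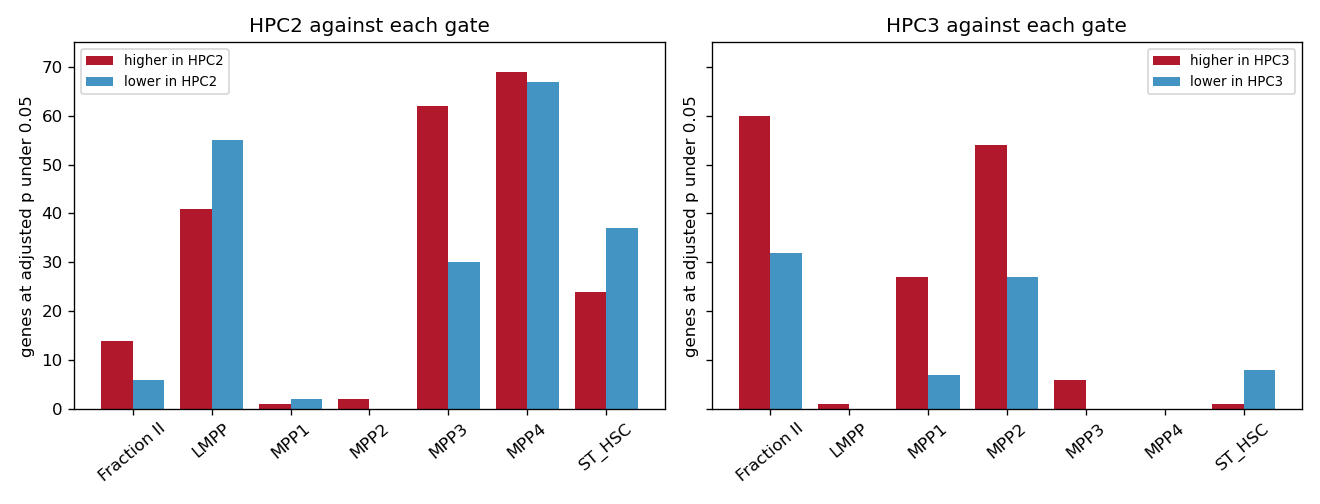
Genes at an adjusted p under 0.05 in HPC2 (left) and HPC3 (right) against each of 7 gates, shown as higher and lower in HPC2 or HPC3. HPC2 had 2 calls against MPP2 and 136 against MPP4, and HPC3 had 81 against MPP2 and 0 against MPP4.

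Megakaryocyte genes were among those higher in HPC2. Of 22 tested, 15 rose against MPP4, 14 against LMPP, 13 against MPP3, 6 against ST_HSC, 1 against Fraction II (Rap1b), 0 against MPP1 and 0 against MPP2. Of 20 lymphoid priming genes 5 fell in HPC2 against MPP4 (among them Satb1, Cnn3, Dntt and Flt3) and 5 against LMPP (among them Satb1, Dntt, Cnn3 and Flt3). Against MPP3, 7 of 24 stem cell identity genes rose in HPC2 (among them Angpt1, Ifitm3, Meis1, Mycn, Pdzk1ip1 and Hlf). In HPC3 against MPP2, 6 megakaryocyte genes fell (among them Rap1b, F2r, Plek, Gp5 and Itga2b), as did Klf1, Gata2, Gata1 and Zfpm1, while Satb1, Dntt and Cnn3 rose. Against MPP1, 6 lymphoid priming genes rose in HPC3 (among them Satb1, Cd52, Dntt, Cnn3 and Flt3), as did 4 granulocyte-monocyte genes (Plac8, Prtn3, Irf8 and Fcgr3). Against Fraction II, 3 of 27 G2/M genes rose in HPC2 (Birc5, Cks2 and Cdca8) and 7 in HPC3 (Birc5, Cks2, Cdk1, Top2a, Cenpa, Cdca8 and Plk1). Fraction II was represented by L49, whose label does not name it, and L74. Adding the HPC2 cells of L49 took the Fraction II cells of that library out, which left Fraction II as 1 library; 0 genes were then called for HPC2 and 22 for HPC3, with 0 and 1 of the G2/M genes. Leaving out 1 library, 2 to 7 G2/M genes rose in HPC2 (fewest without L23, most without L26) and 2 to 14 in HPC3 (fewest without L28, most without L23).

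The other list counts also moved with the libraries. In HPC2, leaving out 1 library gave 13 to 15 megakaryocyte genes against MPP4, 14 to 15 against LMPP, 13 to 14 against MPP3 and 3 to 8 against ST_HSC (fewest without L23). In HPC3 against MPP2, the number of megakaryocyte genes that fell was 1 to 9 (fewest without L28), and that of lymphoid priming genes that rose 1 to 9 (fewest without L28). Against MPP1 it was 2 to 14 for granulocyte-monocyte genes that rose in HPC3 (fewest without L28) and 5 to 6 for lymphoid priming genes. With the library as a block in limma voom, 2 lymphoid priming genes fell in HPC2 against LMPP, 2 granulocyte-monocyte genes rose in HPC3 against MPP1, and 6 megakaryocyte genes rose in HPC2 against Fraction II, 3 against MPP1, 1 against MPP2 and 11 against ST_HSC.

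Against MPP2, 2 genes rose in HPC2. Tmsb4x had 8555 and 9574 CPM in HPC2, against 4094, 3186 and 3005 CPM in MPP2 (log2 change 1.40 ± 0.19, edgeR adjusted p = 0.000841). In HPC2 of L49 it was 2919 CPM, below every MPP2 sum, and with the L49 cells in the fit the call was lost (edgeR adjusted p = 0.203). S100a4, a calcium-binding protein gene, had 86 and 115 CPM in HPC2 and 41.9 CPM in HPC2 of L49, against 6.38, 3.25 and 0.250 CPM in MPP2 (log2 change 4.85 ± 0.78; adjusted p = 0.0084 by edgeR and 0.363 in limma voom with the library as a block). Pf4 had 2.65 ± 1.27, Itga2b 1.10 ± 0.90, Gata1 -0.15 ± 1.09, Gata2 -0.33 ± 0.72 and Mpo -1.07 ± 1.46 on the log2 scale, and none passed. The erythroid genes Klf1 and Car1 had -3.73 ± 1.29 and -5.92 ± 2.06 and did not pass. The count was 88 by DESeq2, 77 without a filter on low counts, 48 without L26 and 23 without L52.

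HPC3 differed from MPP3 in 6 genes, all higher in HPC3. Hlf had 32.6, 97.2 and 147 CPM in HPC3, against 4.54 and 4.06 CPM in MPP3 (log2 change 4.42 ± 0.83, edgeR adjusted p = 0.0357). Ly6a had 34.2, 148 and 217 CPM in HPC3, against 3.91 and 6.42 CPM in MPP3 (4.69 ± 0.83). The others, Gimap6, Tspan13, Ctla2a and Gcnt2, had log2 changes of 5.81 ± 0.76, 2.94 ± 0.40, 3.56 ± 0.62 and 3.66 ± 0.70. Mpo averaged 4141 ± 3424 CPM in HPC3 (SD, n = 3) and 9915 ± 2637 CPM in MPP3 (n = 2), a log2 change of -1.26 ± 1.39 that did not pass. Against the other gates pooled, 1 gene rose in each: Tmsb4x in HPC2 (0.00795% of genes) and the eosinophil granule gene Prg3 in HPC3 (0.00795%). Prg3 had 236, 0.0 and 0.0 CPM in HPC3, so that it rested on L26. With the L49 cells added neither comparison had a call. Tmsb4x then had an edgeR adjusted p of 0.919, and Prg3 did not pass the filter on low counts.

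Over the 9 gates the markers took different orders. Itga2b averaged 569 ± 43.2 CPM in HPC2 (SD, n = 2) and 17.3 ± 22.2 CPM in HPC3 (n = 3). MPP2 came next to HPC2 at 265 ± 116 CPM, and the change between them did not pass. HPC2 of L49 is not in these averages, and its Itga2b lay below both other HPC2 sums. Gata1 averaged 105 ± 4.32 CPM in HPC2 and 2.48 ± 3.40 CPM in HPC3, and MPP2 at 116 ± 51.7 CPM overlapped HPC2. Gata2 averaged 186 ± 8.71 CPM in HPC2, beside MPP1 at 198 ± 87.9, MPP2 at 235 ± 53 and Fraction II at 210.2 ± 34.1 CPM. HPC2 thus lay with the gates that had most of the 3 genes. Dntt averaged 269 ± 182 CPM in HPC3, below LMPP at 866 ± 383 CPM and MPP4 at 795 ± 396 CPM. Flt3 averaged 177 ± 131 CPM in HPC3, and LMPP at 334 ± 25.4 CPM lay above every HPC3 sum. Car1, an erythroid carbonic anhydrase gene, averaged 18.6 ± 13.5 CPM in HPC2 and 6.77 ± 8.98 CPM in HPC3, against 1134 ± 792 CPM in MPP2.

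The authors' deposited annotation also gives each cell a predicted type. In HPC2 the type tMPP2 took 5 of 7 cells of L23, 13 of 14 of L26 and 13 of 23 of L49. The rest were tMPP4 in L23 (2), tMPP3 in L26 (1) and tMPP1 in L49 (10). In HPC3 the type tMPP3 took 8 of 15, 3 of 7 and 1 of 23 cells of L26, L28 and L50, which were the 12 Mpo-high cells, and all 12 Pf4-high HPC2 cells were tMPP2. tMPP4 took 5, 3 and 8 HPC3 cells of these libraries, tMPP5 took 2, 1 and 5, and L50 also had 6 tMPP1 and 3 tMPP2 cells. Of the 2 HPC2 cells of L26 with Mpo above 2000 CPM, 1 was tMPP3 and the other tMPP2. The type tMPP2 also took HPC2 cells with Pf4 under 5000 CPM, among them the 13 of L49. The types were given to the same cells, so these matches are descriptions. Over both gates together, tMPP2 averaged 32.3% ± 32.2 of cells in the 4 HPC libraries and 20.03% ± 28.2 in the 13 others (SD; two-sided exact permutation test, p = 0.483). The exact permutation p of the 5 types ran from 0.455 to 0.874, with adjusted values of 0.834 to 0.874.

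**Figure D5:**
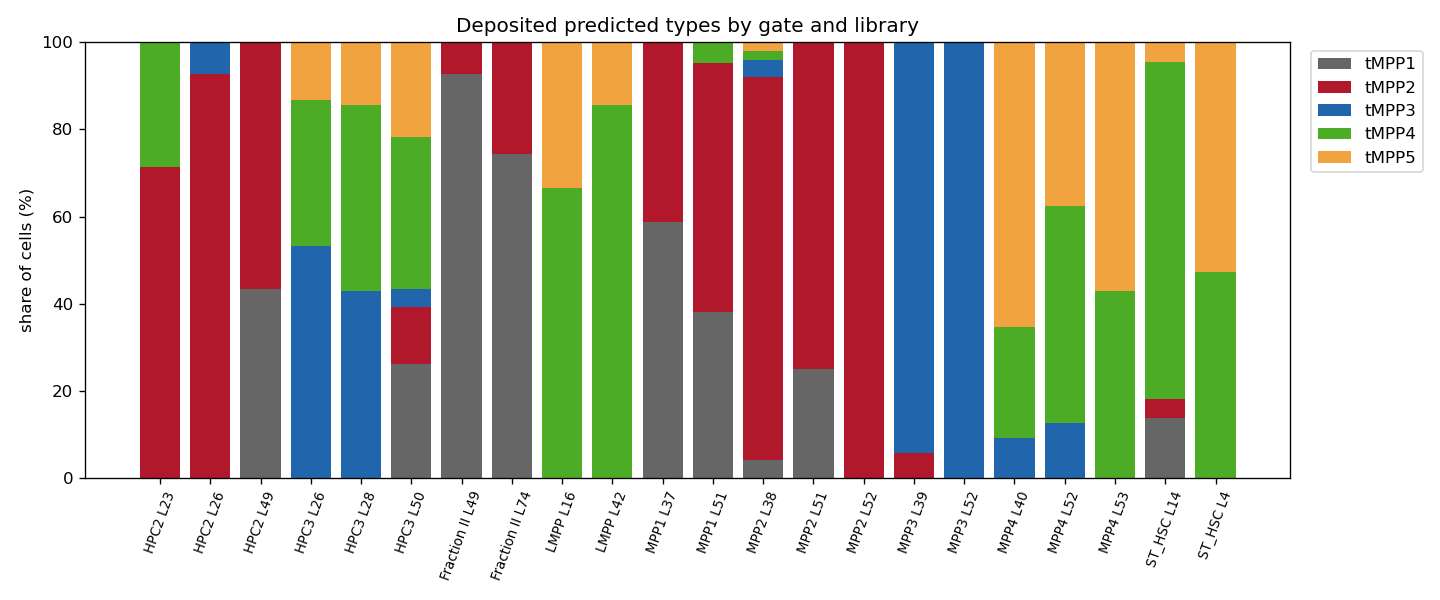
Share of cells of each deposited predicted type in every gate and library, HPC2 and HPC3 first; each bar is a library. HPC2 was 71.4% and 92.9% tMPP2 in L23 and L26, while HPC3 was 53.3%, 42.9% and 4.35% tMPP3 in L26, L28 and L50.

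Depth and gene number were tested only between all HPC cells and the other gates, and no difference passed. Library medians of counts per cell averaged 334954 ± 78512 in the 4 HPC libraries and 371509 ± 178312 in the 13 others (SD; exact permutation p = 0.695). Medians of genes per cell averaged 7174 ± 647 in HPC libraries and 6164 ± 1068 in the others (exact permutation p = 0.0983). With every cell thinned to 20000 counts they averaged 3549 ± 101 in HPC libraries and 3193 ± 378 in the others (exact permutation p = 0.0887). HPC2 had median counts per cell of 409532 and 324065.5 in L23 and L26. HPC3 had 155900, 396023 and 267932 in L26, L28 and L50. Median genes per cell were 7312 and 6973.5 in HPC2, against 5590, 7981 and 6439 in HPC3. Within L26, HPC2 was thus the deeper gate. Depth was not tested between HPC2 and HPC3.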

How the data were processed

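The authors deposited raw counts per gene and cell, without normalization. The submitters' processing notes name TopHat, HTSeq and mm10, without versions. Whether strand was used in counting was not given in the sources used here. For each gate and library, the counts of at least 5 cells were added up, and the library was the replicate. Of the libraries compared, L26 holds both HPC gates, L51 MPP1 and MPP2, and L52 MPP2, MPP3 and MPP4. L49 holds Fraction II and the HPC2 cells that were left out of the main fits. The remaining libraries hold 1 of these gates each, so that gate and library cannot be told apart there. Gate sums of 1 library entered edgeR as independent, and limma voom with the library as a block (consensus correlation 0.204) was an alternative. P-values measure the spread between libraries. edgeR 4.0.16 (filterByExpr, TMM, quasi-likelihood F test, R 4.3.3) called genes at a Benjamini-Hochberg adjusted p under 0.05. SE is the change divided by the root of F. CPM of gate sums are TMM scaled; those of single cells and list sums are not. Alternatives used DESeq2 1.42.0 and limma 3.58.1.

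Members, the 24 gene lists and the markers were chosen with earlier results of these data known. Named genes are the 10 largest called changes each way with a count in every library of the higher group (5 for MPP2), the list members of smallest p, and the 4 markers. Genes named for single cells, for gate comparisons and for their smallest p, such as Ramp1 and Emb, were chosen after their values were seen. In simulated data with 100 changed genes per fold, 9 at 4-fold and 42 at 16-fold were recovered for HPC2 against HPC3 with each gate a group. For the same gates the pooled fit recovered 4 and 43. For HPC cells against the other gates 32 and 66 were recovered. Unchanged genes called were 3, 1 and 3 in that order. The simulated sums were drawn independently, without the correlation within a library. Promoters came from the RefSeq table and gene positions from GENCODE. Some members of the lists are counted but not reported by name here. The 578 cells without annotation were left out.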

Additional observations from a re-analysis of the deposited data

Results flagged for a closer look

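Over the 4 HPC libraries, 3 measures had 1 library far from the others, by the gap to the nearest value as a share of the range; chance gives such a gap in about 1 in 20 groups. Cpa3, a mast cell protease gene, was 10.1, 55.7, 0.719 and 3.36 CPM in L23, L26, L28 and L50, with L26 apart (0.829). Procr, the stem cell receptor EPCR, was 0.0, 3.09, 0.0 and 18.7 CPM in the same order, with L50 apart (0.835). The tMPP1 share was above 0 in L50 alone, with 6 of 23 cells (1.0).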

How the results depend on the processing

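Between HPC cells and the other gates, 0 genes were called except by DESeq2 (2) and with equal weights per gate (34). The 4 markers were not called there, and their sign changed under some alternatives. Leaving out 1 library, Gata1 ran from -0.54 to 1.01, Gata2 from -1.04 to 0.16 and Mpo from -0.28 to 1.08 on the log2 scale. Gata1 was -0.079 with at least 10 cells per sum and -0.33 in limma voom with the library as a block. In libraries labelled bone marrow and spleen Gata1 was -4.51, Itga2b -3.85 and Mpo -1.06. Gata2 was 0.22 with equal weights, 0.10 in bone marrow libraries and 0.15 with the L49 cells, where Mpo was -0.19. Between HPC2 and HPC3 the pooled fit gave 0 calls leaving out any 1 library, 54 by DESeq2, 38 on the gates' own sums and 56 with each gate a group (21 to 65 leaving out 1 library). Gata1, Gata2, Itga2b, Mpo and Pf4 kept their sign under the 11 alternatives of the pooled fit. HPC2 against MPP2 gave 88 by DESeq2, 77 without a filter, 9 with at least 10 cells, 1 with the L49 cells and 2 to 48 leaving out 1 library. Leaving out 1 library, HPC2 gave 12 to 46 against Fraction II, 63 to 120 against LMPP, 2 to 28 against MPP1, 72 to 151 against MPP3, 62 to 178 against MPP4 and 17 to 85 against ST_HSC, and HPC3 gave 35 to 183 against Fraction II, 1 to 6 against LMPP, 24 to 110 against MPP1, 19 to 166 against MPP2, 2 to 51 against MPP3, 0 to 6 against MPP4 and 0 to 29 against ST_HSC. With the L49 cells HPC2 gave 0 against Fraction II, 0 against MPP1 and 0 against the pooled gates. HPC3 then gave 22 against Fraction II, 65 against MPP1, 15 against MPP3, 1 against MPP4, 21 against ST_HSC and 0 against the pooled gates. With the library as a block in limma voom, HPC2 gave 53 against Fraction II, 10 against MPP1 and 190 against MPP3, and HPC3 gave 220 against Fraction II, 4 against LMPP, 112 against MPP1, 38 against MPP3 and 59 against ST_HSC. The tMPP4 difference was -4.27 points in bone marrow libraries and -5.78 with the L49 cells. Leaving out 1 library, tMPP2 ran from -0.736 to 23.1 points, tMPP3 from -0.165 to 14.1 and tMPP4 from -1.26 to 7.28. The cause of these changes was not tested. No paired analysis was possible because the labels give the gates compared no replicate numbers; the library that some gates share was used as the block instead.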
